A study of Homo sapiens with 12 samples.

Results

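The genes described here are 39 genes of the ATF4 response and of amino acid supply: stress response factors and effectors, enzymes of serine, glycine, asparagine, proline, alanine and cysteine metabolism, amino acid transporters and tRNA synthetases. They were chosen by name as members of these groups, with earlier results of these data known. They come from 78892 genes counted, and each had 1 row in the table. Of the 39, 37 had enough counts to be tested, and STC2 and NUPR1, with 2 counts each over all libraries, did not. Messenger RNA was sequenced from OCI-Ly7, a human cell line of diffuse large B-cell lymphoma, in 4 groups of 3 libraries. One group received vehicle, that is 0 nM 5-azacitidine and 0 µM of an HDAC3 inhibitor. The others received the inhibitor alone (15 µM on days 2 and 4), 5-azacitidine alone (100 nM on each day from day 0 to day 4) or both drugs at those doses. Every group was analysed at day 5. The labels give no compound name for the inhibitor. Its target is HDAC3, a histone deacetylase of co-repressor complexes. 5-azacitidine is a cytidine analogue that enters RNA and DNA and traps DNA methyltransferases. All groups come from 1 cell line, and the labels number the libraries without saying whether they came from separate cultures. The p-values therefore cover the variation among the 3 libraries of a group only, and part or all of it may be technical.

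ATF4 is a transcription factor whose translation rises when the initiation factor eIF2 is phosphorylated, as happens under amino acid shortage, misfolded protein in the endoplasmic reticulum, or haem or mitochondrial stress. It pairs with C/EBP proteins on composite elements in DNA and raises genes that import, make and charge amino acids, together with feedback and cell death genes. Because the control acts mainly on translation, the level of ATF4 mRNA is not a measure of ATF4 protein, which was not measured here. Dividing lymphocytes and lymphoma cells need a steady supply of amino acids for protein and nucleotide synthesis.

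The core of the composite C/EBP-ATF element was searched in the promoters of the members, because it is the sequence through which ATF4 is known to act. The search used the letters TGATGNAA on either strand in the 250 bases before the RefSeq gene start (GRCh38.p14). Of the 39 members 32 had a promoter entry, and 7 of these, 21.9%, held the core, against 3.9% of the 27305 genes with an entry. The 7 are shown as 30-base stretches, 5′ to 3′ on the gene's strand, with the 8 matching bases in capitals.
ATF3: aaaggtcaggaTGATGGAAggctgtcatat
CHAC1: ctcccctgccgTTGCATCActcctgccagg
ASNS: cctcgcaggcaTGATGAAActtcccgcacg
SLC1A5: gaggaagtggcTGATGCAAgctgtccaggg
CEBPG: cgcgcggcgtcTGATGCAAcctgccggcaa
AARS1: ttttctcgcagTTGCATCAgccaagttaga
GARS1: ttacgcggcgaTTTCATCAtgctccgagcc
ATF3, ASNS, SLC1A5 and CEBPG carried the core on the gene's own strand, and CHAC1, AARS1 and GARS1 on the opposite one. The stretches lie upstream of the RefSeq start used, at chr1:212565205-212565234 (plus strand) for ATF3, chr15:40953251-40953280 (plus) for CHAC1 and chr7:97872458-97872487 (minus) for ASNS. Those of the others are chr19:46784893-46784922 (minus) for SLC1A5, chr19:33374060-33374089 (plus) for CEBPG, chr16:70289675-70289704 (minus) for AARS1 and chr7:30594834-30594863 (plus) for GARS1. CHAC1, AARS1 and CEBPG share the letters TGATGCAA or their reverse complement with SLC1A5, and the remaining 3 hold other letters at the free position. By the longer gene models used for counting, 6 of the 7 stretches lie inside the span of their gene and that of ATF3 lies before it. The related element TGACGTNA, read on both strands, was in 1 of the 32 promoters, that of ALDH18A1 (3.1%, against 3.3% of genes). A match is a description of the letters and not of binding. The members were chosen as genes of the ATF4 response and amino acid supply, so 21.9% beside 3.9% is not a test of the list. The 7 genes did not move alike with the drugs, as the values below show.

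The libraries held 35947872 to 36337086 counts, so depth differed little between groups. Counts are given per 1e+06 counts of a library (CPM), scaled with the trimmed-mean factors of edgeR, which ranged from 0.966 to 1.03. The B-cell identity of the line was visible in all groups, with 10 of 10 B-cell markers over 1 CPM. Their summed level was 5680 to 6040 CPM in vehicle, 8340 to 8490 with the inhibitor, 5990 to 6410 with 5-azacitidine and 8740 to 9320 with both. With the inhibitor CD74 went from a mean of 2780 to 4450 CPM and MS4A1 from 871 to 1450. BCL6 went down from 238 to 210 and MME from 52.4 to 43.4, and the other B-cell markers had higher means than in vehicle. Of 8 T and NK cell markers, the summed level was 1.79 to 2.67 CPM in vehicle, 8.89 to 10.5 with the inhibitor, 2.48 to 2.62 with 5-azacitidine and 14.3 to 15.8 with both, while CD8A and CD8B were at 0 in every group. The highest of them was CD3E, with means of 1.02, 6.48, 1.55 and 9.03 CPM in that order. Myeloid markers summed to 0.327 to 0.497 CPM in vehicle, 1.41 to 2.01 with the inhibitor, 0.136 to 0.38 with 5-azacitidine and 2.63 to 3.27 with both, with ELANE and S100A8 at 0. LYZ had means of 0.0188, 0.965, 0.0381 and 2.19 CPM in that order, while CD14 was highest in vehicle (0.36). Epithelial and stromal markers summed to 63.0 to 68.0, 75.2 to 78.4, 72.8 to 78.5 and 87.9 to 98.9 CPM in the same order, with KRT8, KRT18 and COL1A2 at 0. Most of that was PECAM1 (66.3 ± 2.85 in vehicle), which leukocytes also express. COL1A1 went from a mean of 0.0545 CPM in vehicle to 2.95 with the inhibitor, 0.176 with 5-azacitidine and 6.37 with both. Erythroid markers reached at most 0.22 CPM, with HBB at 0. The mitochondrially encoded share of counts was 9.59% to 10.5% in vehicle, 12.1% to 13.0% with the inhibitor, 10.0% to 13.8% with 5-azacitidine and 12.5% to 15.3% with both, so every library with the inhibitor lay above every vehicle library. It was highest, within their groups, in 5-azacitidine replicate 1 and combination replicate 3. The part of these shifts in the results was not tested. Leaving out both libraries changed the number of members called from 26 to 24 for the inhibitor, from 16 to 15 for 5-azacitidine and from 30 to 31 for both drugs, each against vehicle. That fit keeps every vehicle and inhibitor library, so it cannot bear on the shift between those groups. The combination libraries left in it also lay above vehicle. In bulk samples, fewer cells of a type and less RNA per cell cannot be told apart.

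In vehicle the members covered a wide range of expression. Per length, as TPM over annotated exons (counts per base, scaled to a sum of 1e+06), ATF4 itself was highest at 792 ± 17.2 TPM (SD, n = 3). SLC7A5 followed at 391 ± 6.87, PSAT1 at 267 ± 13.6, SHMT2 at 231 ± 5.09 and PYCR1 at 197 ± 9.2. At the other end were DDIT4 at 5.73 ± 0.745, SLC7A11 at 3.58 ± 0.368, ATF3 at 0.649 ± 0.0668 and VLDLR, a lipoprotein receptor, at 0.0644 ± 0.0429 TPM. STC2, a secreted glycoprotein, and NUPR1, a stress-induced nuclear protein, were at the level of single counts. The 5 highest members were thus ATF4, a transporter and 3 biosynthetic enzymes, and the stress genes DDIT3, DDIT4 and ATF3 were among the 9 lowest. Of the exonic bases, 39.6% of DDIT3, 31.8% of DDIT4 and 0% of ATF3 are shared with other genes. Reads there were not counted, so the TPM of DDIT3 and DDIT4 may be too low. The members together took 0.571% to 0.576% of counts in vehicle, 0.538% to 0.542% with the inhibitor, 0.497% to 0.525% with 5-azacitidine and 0.474% to 0.499% with both. The 4 ranges do not overlap except those of 5-azacitidine and the combination.

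More members fell than rose with the inhibitor. Against vehicle, 7 of 37 tested members rose and 19 fell, and the median log2 change was -0.13. The 7 were the factors ATF4 and ATF3, the effectors DDIT4, SESN2 and CHAC1, the transporter SLC38A2 and the synthetase AARS1. Calls are at an adjusted p under 0.05 (edgeR quasi-likelihood F-test, Benjamini-Hochberg over 17869 genes), and all values named as adjusted p here come from that test. Of all genes tested, 26.4% rose and 24.9% fell, so a rise in 18.9% of members and a fall in 51.4% stand against that. Genes of higher expression fell more often in general. Among 6966 genes with a mean of at least 20 CPM, a limit chosen after seeing the data, 18.5% rose and 47.1% fell, with a median of -0.14. Of the 29 members at that level, 17.2% rose and 62.1% fell, with a median of -0.18. The members' shares lay nearer to those of genes at their level than to those of all genes.

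With 5-azacitidine alone, by contrast, few genes of the table changed, yet many members did. Against vehicle, 1 member rose, SLC38A2, and 15 fell, with a median of -0.15. The rise of SLC38A2 was small and did not hold under 10 of 22 other settings. Of all genes 4.31% rose and 4.75% fell, and of members 2.7% rose and 40.5% fell. Among genes of at least 20 CPM the shares were 5.41% and 9.59% (median -0.02), and among the 29 members 3.45% and 48.3%. All 3 libraries with 5-azacitidine lay below all 3 of vehicle for 23 of 37 members and above them for 1. The share of all genes that did so was not computed, so this count has no background beside it. The count of members called rests in part on single libraries: it was 8 without 5-azacitidine replicate 2, 9 without vehicle replicate 1 and 10 without vehicle replicate 3. In those fits 2.76%, 2.82% and 2.91% of all genes fell.

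With both drugs, 6 members rose and 24 fell against vehicle (median -0.24), where 29.6% of all genes rose and 27.5% fell. Of genes of at least 20 CPM 21.2% rose and 49.8% fell, and of members at that level 13.8% and 75.9%. Against the inhibitor alone, the combination was lower in 13 members and higher in 1, with a median of -0.15, while 4.51% of all genes were higher and 2.83% lower. Of genes of at least 20 CPM 4.75% were higher and 5.76% lower, and of members at that level 0% and 41.4%. The 14 calls of both directions became 5 without inhibitor replicate 1 or 2, 6 without inhibitor replicate 3, and 9 without combination replicate 1 or 3. In those fits, in that order, 1.41%, 1.48%, 1.22%, 1.38% and 1.80% of all genes were lower. Against 5-azacitidine alone the combination was higher in 8 members and lower in 18 (median -0.19), where 28.7% of all genes were higher and 25.1% lower. Of genes of at least 20 CPM 22.3% were higher and 45.7% lower, and of members at that level 20.7% and 55.2%. These comparisons share libraries, so their values stand side by side and are not independent of each other.

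**Figure D1:**
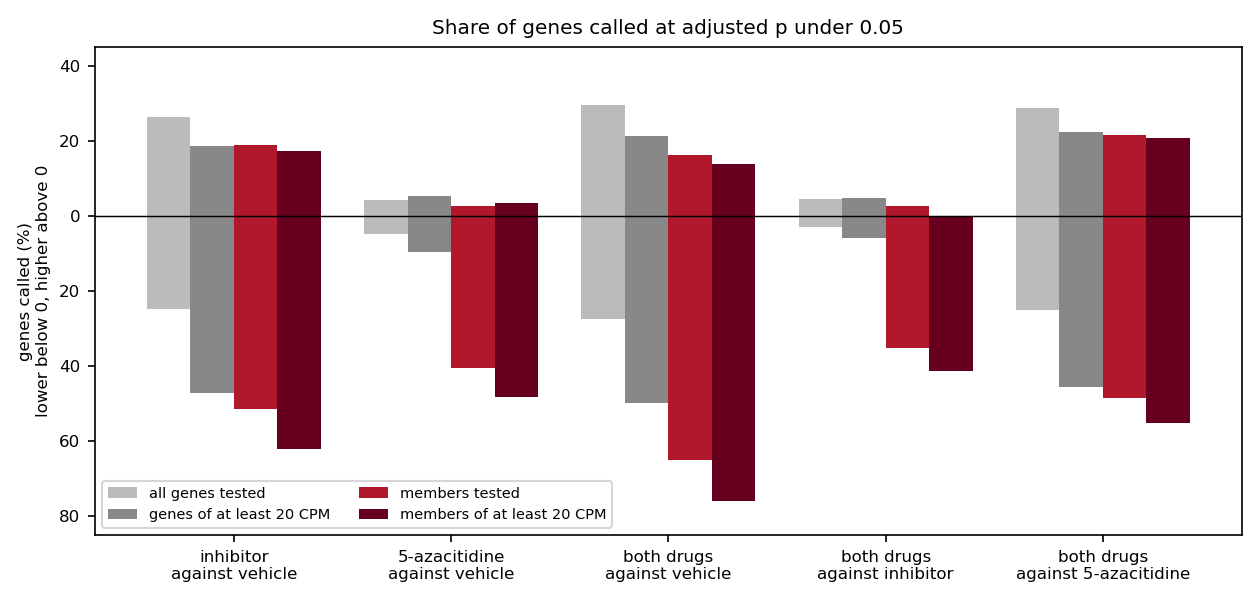
Share of genes called higher (upward, %) and lower (downward, %) in 5 comparisons, for all 17869 genes tested, the 6966 genes of at least 20 CPM, the 37 members tested and the 29 members of at least 20 CPM. Against vehicle the members' lower share is 40.5% beside 4.75% of all genes with 5-azacitidine, and 51.4% beside 24.9% with the inhibitor. For members and genes of at least 20 CPM it is 48.3% beside 9.59% with 5-azacitidine, and 62.1% beside 47.1% with the inhibitor.

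**Figure D2:**
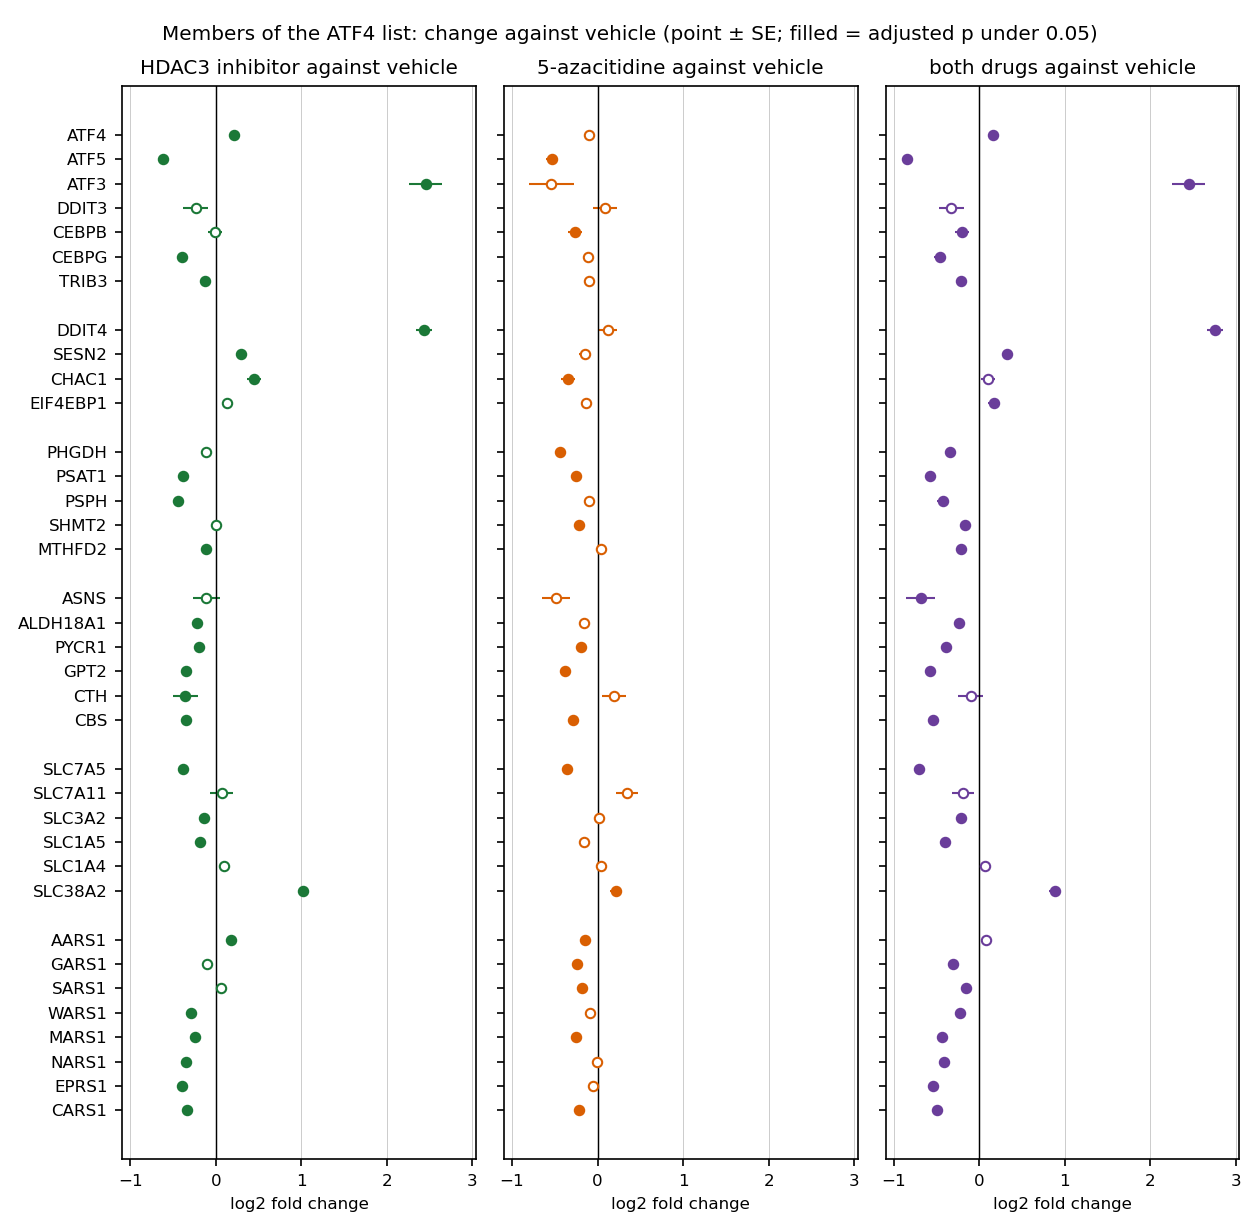
Log2 fold change against vehicle (x axis, same scale in each panel) of 36 members in the order of their roles, as the estimate ± SE from 3 libraries a group; filled points passed the test. VLDLR, tested but at under 1 CPM in each library, is left out. DDIT4, ATF3 and SLC38A2 stand far to the right with the inhibitor and with both drugs, while most enzymes and synthetases lie left of 0.

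Among the stress response factors, ATF4 mRNA and the mRNA of its listed partners and relatives went different ways. ATF4 (chromosome 22, 39519695 to 39522686, GRCh38) read 714, 680.5 and 727 CPM in vehicle, 824, 819 and 818 with the inhibitor, 662, 634 and 677 with 5-azacitidine and 840.4, 766 and 764 with both. The inhibitor libraries lay above all of vehicle and the 5-azacitidine libraries below all of vehicle. ATF4 rose with the inhibitor by 0.21 ± 0.05 on the log2 scale (SE; adjusted p = 7.98e-04) and with both drugs by 0.16 ± 0.05 (adjusted p = 7.92e-03). The rise with both drugs no longer passed once vehicle replicate 2 (0.13, adjusted p = 0.0534) or combination replicate 1 (0.11, adjusted p = 0.0702) was left out. With 5-azacitidine alone the change was -0.10 ± 0.05 and did not pass (adjusted p = 0.22). The annotation holds 4 ATF4 pseudogenes, and reads that map to several places were split. The ATF4 count held a fraction in 0 libraries.

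ATF5, a close relative of ATF4 that is also controlled through translation, went the opposite way. It read 43.2, 43.3 and 45.6 CPM in vehicle, 29.1, 27.9 and 29.2 with the inhibitor, 29.8, 28.7 and 32.8 with 5-azacitidine and 24.8, 25.3 and 23.6 with both. Each drug alone took it below all vehicle libraries, and all libraries with both drugs were lower still. The log2 changes were -0.61 ± 0.07 for the inhibitor (adjusted p = 1.15e-08), -0.53 ± 0.07 for 5-azacitidine (adjusted p = 3.25e-06) and -0.84 ± 0.07 for both (adjusted p = 2.28e-11). ATF5 had the largest fall of the members with either single drug among those of at least 20 CPM.

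ATF3, a repressor induced by many stresses, was low in vehicle, at 0.939, 0.763 and 0.960 CPM. It read 4.85, 4.46 and 5.29 with the inhibitor, 0.743, 0.436 and 0.651 with 5-azacitidine and 5.93, 4.17 and 4.44 with both. All libraries that received the inhibitor stood above all that did not. Its log2 rise was 2.45 ± 0.19 with the inhibitor (adjusted p = 3.87e-11) and 2.45 ± 0.19 with both (adjusted p = 2.46e-11). With 5-azacitidine its change of -0.54 ± 0.26 did not pass (adjusted p = 0.221).

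CEBPG, the C/EBP protein that dimerises with ATF4 on amino acid response elements, read 73.2, 75.9 and 76.4 CPM in vehicle, 59.8, 57.1 and 54.2 with the inhibitor, 70.2, 68.3 and 70.8 with 5-azacitidine and 49.04, 57.1 and 57.3 with both. It fell by 0.40 ± 0.06 with the inhibitor (log2; adjusted p = 4.51e-06) and by 0.46 ± 0.06 with both (adjusted p = 3.17e-07). Each treated library lay below all of vehicle, but the 5-azacitidine change of -0.11 ± 0.06 did not pass (adjusted p = 0.311). CEBPB, another C/EBP factor, fell with 5-azacitidine by 0.26 ± 0.08 (adjusted p = 0.0468) and with both drugs by 0.20 ± 0.08 (adjusted p = 0.0402). The first call was lost in 14 of 22 other settings, among them those without any 1 of the vehicle or inhibitor libraries or without 5-azacitidine replicate 1 or 2 (adjusted p = 0.0562 to 0.195 over the 14). The second was lost in 9, among them those without vehicle replicate 1 or 3 or combination replicate 1 or 2 (adjusted p = 0.0525 to 0.212). TRIB3, a pseudokinase that feeds back on ATF4, fell by 0.13 with the inhibitor and by 0.21 with both. Its inhibitor call was lost in 13 of 22 other settings, among them those without vehicle replicate 1 or 3, any inhibitor library or 5-azacitidine replicate 1 (-0.06 to -0.15, adjusted p = 0.0529 to 0.348). DDIT3, which encodes the stress factor CHOP, was at 3.06 to 5.75 CPM over all libraries and passed in no comparison with vehicle. Of the DDIT3 coding bases 33.5% lie in exons of another gene and of the CEBPB coding bases 33.7%, where reads were not counted.

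The effectors held the largest rises of the list. DDIT4 (chromosome 10, 72273919 to 72276036), an inhibitor of the growth kinase complex mTORC1, read 4.67, 3.90 and 3.84 CPM in vehicle, 21.2, 23.4 and 22.6 with the inhibitor, 4.83, 4.47 and 4.20 with 5-azacitidine and 28.6, 26.9 and 28.5 with both. The 3 combination libraries lay above the 3 inhibitor libraries, and these above all others. The log2 rise was 2.44 ± 0.09 with the inhibitor (adjusted p = 1.64e-17) and 2.76 ± 0.09 with both (adjusted p = 5.5e-19). The combination exceeded the inhibitor by 0.32 ± 0.08 (adjusted p = 0.0112), which made DDIT4 the 1 member called higher with both drugs than with the inhibitor. Without inhibitor replicate 1 that call was lost (0.28, adjusted p = 0.0837). Of its coding bases 53.9% lie in exons of another gene, so its counts come from the rest of the transcript.

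SESN2, a leucine sensor upstream of mTORC1, read 40.1, 39.3 and 39.4 CPM in vehicle, 47.4, 49.7 and 48.5 with the inhibitor, 33.3, 37.0 and 36.6 with 5-azacitidine and 48.6, 47.8 and 52.1 with both. It rose by 0.29 ± 0.06 with the inhibitor (adjusted p = 2.15e-04) and by 0.32 ± 0.06 with both (adjusted p = 5.31e-05). The 5-azacitidine libraries lay below vehicle, but the change of -0.15 ± 0.06 did not pass (adjusted p = 0.133). EIF4EBP1, the translation repressor that mTORC1 switches off, rose with both drugs by 0.17 ± 0.07 (adjusted p = 0.0308), beside 0.14 ± 0.07 with the inhibitor (adjusted p = 0.0851). The call was lost in 6 of 22 other settings, among them those without vehicle replicate 1 or 2 or combination replicate 1 or 2 (0.10 to 0.17, adjusted p = 0.0507 to 0.204). The difference of these 2 changes, 0.03 ± 0.07, did not pass (adjusted p = 0.846).

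CHAC1, an enzyme that breaks down glutathione and is a known target of ATF4, moved in opposite directions with the single drugs. It read 20.3, 18.2 and 21.0 CPM in vehicle, 25.9, 29.3 and 25.9 with the inhibitor, 17.1, 14.1 and 15.6 with 5-azacitidine and 21.1, 21.3 and 21.5 with both. The inhibitor libraries lay above vehicle, the 5-azacitidine libraries below it, and those with both between the single drugs and just above vehicle. It rose by 0.45 ± 0.08 with the inhibitor (adjusted p = 3.44e-05) and fell by 0.35 ± 0.08 with 5-azacitidine (adjusted p = 7.07e-03). The second call was lost without 5-azacitidine replicate 2 (-0.28, adjusted p = 0.0669). With both, its change of 0.10 ± 0.08 did not pass (adjusted p = 0.295).

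**Figure D3:**
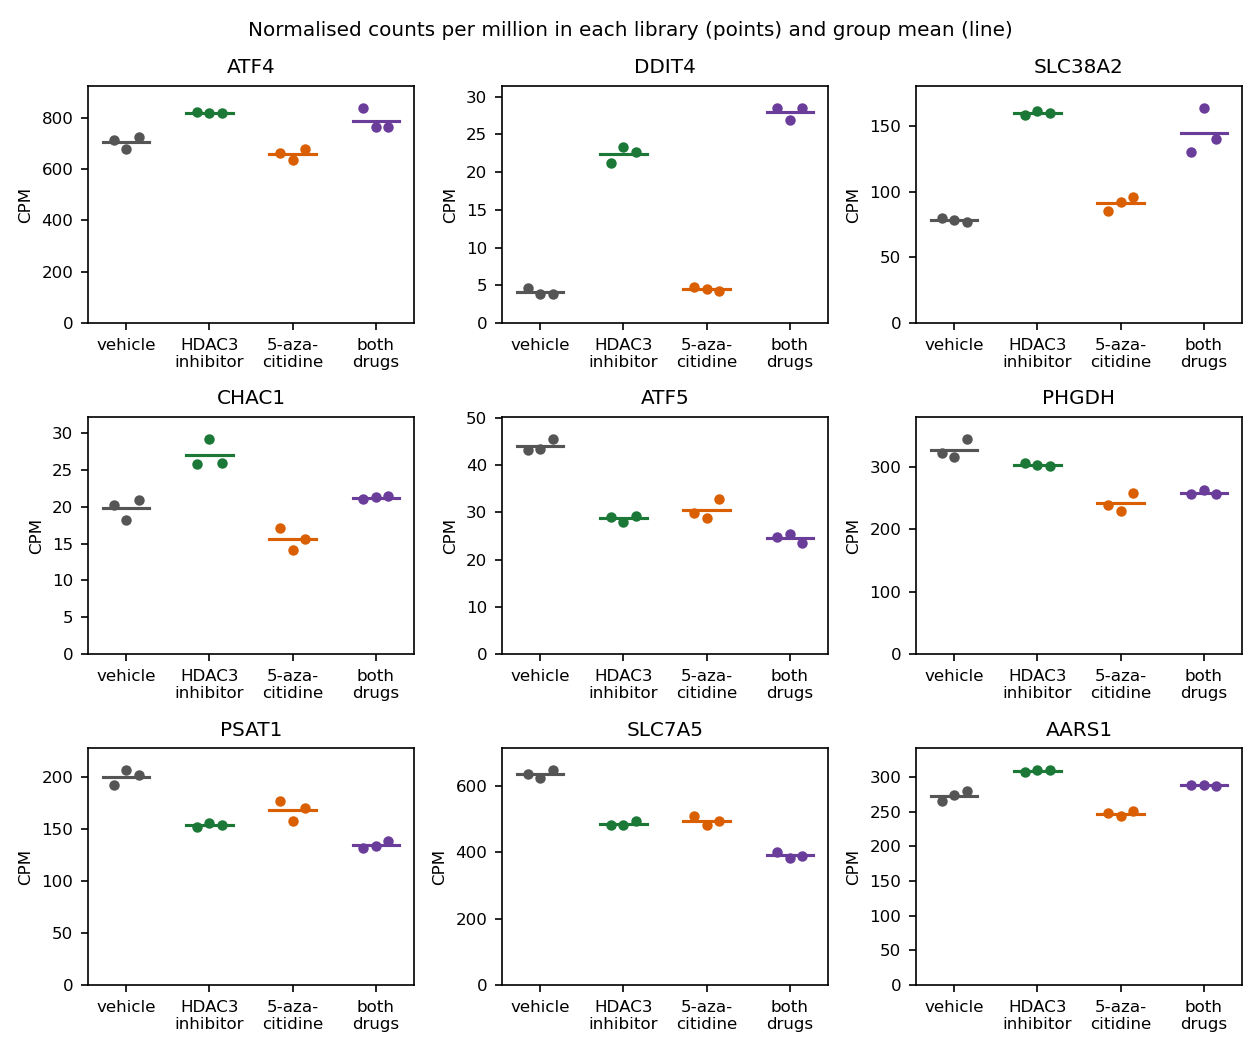
Normalised counts (CPM) in each library (points, 3 a group; y axes from 0) and the group mean (line) of 9 members. DDIT4 and SLC38A2 are high wherever the inhibitor was given, ATF5, PSAT1 and SLC7A5 step down with each drug and again with both, PHGDH is low in both 5-azacitidine groups, and CHAC1 and AARS1 lie above vehicle with the inhibitor and below it with 5-azacitidine.

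The serine, glycine and one-carbon enzymes were all lower with both drugs, and the steps that fell differed between the 2 drugs. With both drugs 5 of 5 fell, with the inhibitor 3 and with 5-azacitidine 3. In that order 27.5%, 24.9% and 4.75% of all genes fell, and 49.8%, 47.1% and 9.59% of genes of at least 20 CPM. The count with the inhibitor is thus near the share of genes at that level. PHGDH (chromosome 1, 119648411 to 119744218), the first enzyme of serine synthesis from a glycolytic intermediate, read 322, 315 and 346 CPM in vehicle, 306, 303 and 302 with the inhibitor, 239, 230.2 and 259 with 5-azacitidine and 256, 263 and 256 with both. The 6 libraries with 5-azacitidine all lay below the 6 without it. PHGDH fell with 5-azacitidine by 0.43 ± 0.05 (adjusted p = 2.7e-06) and with both by 0.34 ± 0.05 (adjusted p = 2.74e-06), and its change with the inhibitor, -0.11 ± 0.05, did not pass (adjusted p = 0.081). The inhibitor and 5-azacitidine groups themselves differed by 0.32 ± 0.05 (adjusted p = 9.18e-06).

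PSAT1, the aminotransferase of the next step, fell with each drug. It read 193, 207 and 202 CPM in vehicle, 152, 156 and 154 with the inhibitor, 177, 158 and 171 with 5-azacitidine and 132, 134 and 139 with both. No library with a drug reached vehicle, and the combination lay below both single drugs. The changes were -0.38 ± 0.05 with the inhibitor (adjusted p = 8.64e-07), -0.25 ± 0.05 with 5-azacitidine (adjusted p = 2.18e-03) and -0.57 ± 0.05 with both (adjusted p = 4.7e-10).

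PSPH, the phosphatase that releases serine, read 62.4, 66.8 and 63.6 CPM in vehicle, 48.0, 47.9 and 46.6 with the inhibitor, 61.8, 57.4 and 60.9 with 5-azacitidine and 49.5, 49.3 and 44.3 with both. Its pattern was the reverse of that of PHGDH: all libraries with the inhibitor lay below all without it. It fell by 0.44 ± 0.06 with the inhibitor (adjusted p = 6.61e-07) and by 0.43 ± 0.06 with both (adjusted p = 5.89e-07), with -0.10 ± 0.06 for 5-azacitidine (adjusted p = 0.343). The inhibitor group was lower than the 5-azacitidine group by -0.34 ± 0.06 (adjusted p = 2.96e-05). SHMT2, which splits serine into glycine and a one-carbon unit in mitochondria, fell with 5-azacitidine by 0.21 ± 0.06 (adjusted p = 0.0208) and with both by 0.17 ± 0.06 (adjusted p = 0.0168). Its 5-azacitidine call was lost without vehicle replicate 1 or 3 or 5-azacitidine replicate 2 or 3 (adjusted p up to 0.155), and that with both without vehicle replicate 3 or combination replicate 1 or under a stricter filter (adjusted p up to 0.188). MTHFD2, the next mitochondrial folate enzyme, fell by 0.12 ± 0.05 with the inhibitor (adjusted p = 0.048) and by 0.21 ± 0.05 with both (adjusted p = 4.86e-04). With the title number as a replicate block the inhibitor call of MTHFD2 was lost (-0.12, adjusted p = 0.0515), as it was in 16 of 22 other settings in all, among them those without any 1 of the vehicle or inhibitor libraries or 5-azacitidine replicate 1 or 2 (-0.04 to -0.13, adjusted p = 0.0515 to 0.434). MTHFD2 has 7 pseudogenes and PSAT1 has 4 in the annotation. The count held a fraction in 3 libraries for MTHFD2 and in 0 for PSAT1.

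Among enzymes of asparagine, proline, alanine and cysteine synthesis, 5 of 6 fell with the inhibitor, 3 with 5-azacitidine and 5 with both, and none rose. The 5 with both include ASNS, which could not be measured as below, so 4 of the other 5 fell. Beside these counts, 24.9%, 4.75% and 27.5% of all genes fell in that order of groups. Of genes of at least 20 CPM, a level that ASNS and CTH do not reach, 47.1%, 9.59% and 49.8% fell. ASNS, the asparagine synthetase and a classical ATF4 target, could not be followed in this table. All of its coding bases (100%) lie in exons of an overlapping gene model, and reads over 2 genes were not counted. What was left read 3.60, 3.71 and 3.08 CPM in vehicle, 3.02, 3.27 and 3.30 with the inhibitor, 2.17, 2.32 and 2.90 with 5-azacitidine and 2.60, 1.76 and 2.08 with both. These counts passed for both drugs against vehicle (-0.69 ± 0.17, adjusted p = 9.83e-04), and they are not a measure of the spliced coding mRNA.

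GPT2, the mitochondrial alanine aminotransferase, read 70.2, 72.2 and 73.1 CPM in vehicle, 55.7, 56.6 and 57.0 with the inhibitor, 55.6, 53.8 and 55.8 with 5-azacitidine and 45.3, 48.7 and 50.6 with both. Each drug alone lowered it to nearly the same level, and the combination lay below both. The changes were -0.35 ± 0.06 (adjusted p = 8.13e-06), -0.38 ± 0.06 (adjusted p = 3.37e-05) and -0.57 ± 0.06 (adjusted p = 1.52e-09) for the inhibitor, 5-azacitidine and both.

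PYCR1, the last enzyme of mitochondrial proline synthesis, read 193, 180.1 and 211 CPM in vehicle, 173, 166 and 171 with the inhibitor, 167, 167 and 177 with 5-azacitidine and 152, 158 and 137 with both. Each treated library lay below vehicle. PYCR1 fell by 0.20 ± 0.06 with the inhibitor (adjusted p = 6.62e-03), by 0.19 ± 0.06 with 5-azacitidine (adjusted p = 0.0374) and by 0.39 ± 0.06 with both (adjusted p = 3e-06). The inhibitor call was lost without vehicle replicate 3 and under a stricter filter (-0.14 and -0.12, adjusted p = 0.0695 and 0.0682). The 5-azacitidine call was lost with the title number as a replicate block (-0.19, adjusted p = 0.0503). In all it was lost in 13 of 22 other settings, among them those without vehicle replicate 1 or 3, any inhibitor library or any 5-azacitidine library (-0.13 to -0.22, adjusted p = 0.0503 to 0.25). ALDH18A1, which starts that route, fell with the inhibitor by 0.22 ± 0.05 and with both by 0.24 ± 0.05, and its 5-azacitidine change of -0.15 ± 0.05 missed the threshold (adjusted p = 0.0553).

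CBS, which makes cystathionine from homocysteine and serine, read 142, 142 and 145 CPM in vehicle, 114, 111 and 112 with the inhibitor, 124, 109 and 119.9 with 5-azacitidine and 102, 90.0 and 102 with both. It fell by 0.35 ± 0.06, 0.29 ± 0.06 and 0.55 ± 0.06 with the inhibitor, 5-azacitidine and both (adjusted p = 1.08e-05, 1.40e-03 and 5.59e-09). The value is uncertain because a near-identical copy lies on the same chromosome 21 (6444869 to 6467513) and takes part of the reads. The copy's counts fell as well, by 0.39, 0.32 and 0.58 (adjusted p = 2.09e-06, 3.6e-04 and 1.3e-09). Reads that map to both places were shared as fractions, so the counts of CBS and its copy are not independent. The fall of the copy therefore does not lessen the uncertainty. CTH, which releases cysteine from cystathionine, read 4.83, 4.23 and 5.22 CPM in vehicle, 3.85, 3.00 and 4.30 with the inhibitor, 4.88, 5.40 and 6.05 with 5-azacitidine and 3.90, 5.12 and 4.27 with both. The vehicle and inhibitor libraries overlapped. Its fall with the inhibitor of 0.36 ± 0.15 (adjusted p = 0.0442) was lost in 13 of 22 other settings, among them those without vehicle replicate 1 or 3, inhibitor replicate 1 or 2, or 5-azacitidine replicate 1 (-0.23 to -0.38, adjusted p = 0.0504 to 0.251).

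The amino acid transporters had the clearest opposite pair. SLC7A5 (chromosome 16, 87830016 to 87869507), the light chain of the LAT1 exchanger that imports leucine and other large neutral amino acids, read 636, 623 and 649 CPM in vehicle, 482, 483 and 493 with the inhibitor, 510.0, 484 and 493 with 5-azacitidine and 402, 384 and 388 with both. The single drugs overlapped each other, both lay below vehicle, and the combination lay below all. SLC7A5 fell by 0.39 ± 0.05 with the inhibitor (adjusted p = 9.88e-08), by 0.36 ± 0.05 with 5-azacitidine (adjusted p = 7.57e-06) and by 0.70 ± 0.05 with both (adjusted p = 9.39e-13). The combination was lower than the inhibitor by -0.31 ± 0.05 (adjusted p = 9.88e-05) and lower than 5-azacitidine by -0.34 ± 0.05 (adjusted p = 7.25e-07).

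SLC38A2 (chromosome 12, 46358188 to 46372773), the SNAT2 sodium-coupled importer of small neutral amino acids that is induced by amino acid shortage, rose with the inhibitor and was slightly higher with 5-azacitidine. It read 80.3, 78.9 and 77.4 CPM in vehicle, 159, 162 and 160.3 with the inhibitor, 85.7, 92.6 and 95.9 with 5-azacitidine and 130.5, 164 and 140.5 with both. Every treated library lay above vehicle, and with both drugs 2 libraries lay below the inhibitor's range and 1 above it. The rise was 1.02 ± 0.07 with the inhibitor (adjusted p = 4.96e-13), 0.21 ± 0.07 with 5-azacitidine (adjusted p = 0.0383) and 0.88 ± 0.07 with both (adjusted p = 6.51e-12). The 5-azacitidine call was lost in 10 of 22 other settings (0.16 to 0.23, adjusted p = 0.0502 to 0.168). These were limma voom, the replicate block by library name, and the fits without any 1 of the vehicle or inhibitor libraries or without 5-azacitidine replicate 2 or 3.

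SLC1A5, the glutamine importer ASCT2, read 119, 112 and 126 CPM in vehicle, 108, 103 and 104 with the inhibitor, 104, 106 and 109 with 5-azacitidine and 89.4, 96.8 and 85.0 with both. The single drugs overlapped below vehicle, and the combination lay lowest. SLC1A5 fell by 0.18 ± 0.06 with the inhibitor (adjusted p = 7.04e-03) and by 0.40 ± 0.06 with both (adjusted p = 9.72e-07), and its change with 5-azacitidine was -0.16 ± 0.06 (adjusted p = 0.0697). SLC3A2, the heavy chain shared by LAT1 and the cystine exchanger, fell by 0.14 ± 0.05 and 0.21 ± 0.05 with the inhibitor and both (adjusted p = 0.0195 and 8.01e-04). The inhibitor call of SLC1A5 was lost without vehicle replicate 3 and under a stricter filter (adjusted p = 0.0531 and 0.0724), and that of SLC3A2 under that filter and without vehicle replicate 1 or 3 or inhibitor replicate 2 (adjusted p = 0.0523 to 0.213). The partner of SLC3A2 for cystine import, SLC7A11, passed in no comparison with vehicle and read 9.17 to 17.7 CPM over all libraries. SLC1A4, a neutral amino acid carrier, read 70.2 to 80.0 CPM and passed in none of them. The heavy chain therefore changed less than the LAT1 light chain in these estimates, a difference that was not tested.

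Of the 8 tRNA synthetases, which load amino acids onto their tRNAs, 5 fell and 1 rose with the inhibitor, 5 fell with 5-azacitidine and 7 fell with both. In the same order 24.9%, 4.75% and 27.5% of all genes fell, and 47.1%, 9.59% and 49.8% of genes of at least 20 CPM. With the inhibitor 26.4% of all genes and 18.5% of genes at that level rose. EPRS1, for glutamate and proline, read 309, 304 and 304 CPM in vehicle, 230.1, 232 and 237 with the inhibitor, 276, 307 and 299 with 5-azacitidine and 196, 228 and 205 with both. The inhibitor lowered it by -0.39 ± 0.06 (adjusted p = 1.27e-06) and both drugs by -0.54 ± 0.06 (adjusted p = 3.29e-09), where 5-azacitidine alone gave -0.06 ± 0.06 (adjusted p = 0.621). NARS1, for asparagine, had the same order. It read 158, 156 and 148 CPM in vehicle, 125, 120.1 and 118 with the inhibitor, 152, 154 and 153 with 5-azacitidine and 114, 119.5 and 113 with both, with falls of 0.35 ± 0.05 (adjusted p = 1.78e-06) and 0.42 ± 0.05 (adjusted p = 6.17e-08) for the inhibitor and both. In these 2 genes the 5-azacitidine libraries overlapped vehicle.

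MARS1, for methionine, read 385, 389.6 and 405 CPM in vehicle, 344, 321 and 329 with the inhibitor, 346, 322 and 323 with 5-azacitidine and 295, 280.4 and 293 with both. CARS1, for cysteine, read 67.2, 67.7 and 65.7 CPM in vehicle, 53.4, 51.2 and 53.7 with the inhibitor, 56.9, 55.2 and 61.0 with 5-azacitidine and 46.4, 48.6 and 47.8 with both. Both genes fell with each drug and lay lowest with the combination. MARS1 fell by 0.24, 0.25 and 0.44 (adjusted p = 1.70e-04, 1.28e-03 and 2.29e-08) and CARS1 by 0.34, 0.21 and 0.49 (adjusted p = 1.16e-05, 0.0147 and 3.01e-08) with the inhibitor, 5-azacitidine and both. The 5-azacitidine call of CARS1 was lost without vehicle replicate 1 or 2 or 5-azacitidine replicate 2 (-0.18 to -0.21, adjusted p = 0.0552 to 0.0979).

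GARS1, for glycine, read 288, 295 and 281 CPM in vehicle, 269.8, 279.5 and 254 with the inhibitor, 241, 249.6 and 243 with 5-azacitidine and 233, 246 and 218 with both. The inhibitor libraries reached almost to vehicle, and the 2 groups with 5-azacitidine lay lower and overlapped. GARS1 fell with 5-azacitidine by 0.24 ± 0.05 (adjusted p = 3.70e-03) and with both by 0.31 ± 0.05 (adjusted p = 1.39e-05). SARS1, for serine, also fell with 5-azacitidine (-0.18 ± 0.05, adjusted p = 0.018) and both (-0.16 ± 0.05, adjusted p = 5.45e-03) and its inhibitor change of 0.06 ± 0.05 did not pass (adjusted p = 0.333). The 5-azacitidine call of SARS1 was lost without vehicle replicate 1 or 3 or 5-azacitidine replicate 2 (adjusted p = 0.0553 to 0.104), and that with both under a stricter filter (adjusted p = 0.109). WARS1, for tryptophan, fell with the inhibitor by 0.29 ± 0.06 (adjusted p = 7.35e-05) and with both by 0.22 ± 0.06. AARS1, for alanine, was the exception, with 265, 274 and 280.3 CPM in vehicle, 307, 311 and 310.5 with the inhibitor, 248, 243 and 251 with 5-azacitidine and 288, 288 and 288 with both. Its 4 groups did not overlap: it rose by 0.18 ± 0.05 with the inhibitor (adjusted p = 1.92e-03), fell by 0.14 ± 0.05 with 5-azacitidine (adjusted p = 0.0491) and gave 0.08 ± 0.05 with both (adjusted p = 0.165). The 5-azacitidine call of AARS1 was lost with the title number as a replicate block (-0.14, adjusted p = 0.0536). In all it was lost in 16 of 22 other settings, among them those without any 1 of the vehicle, inhibitor or 5-azacitidine libraries (-0.13 to -0.17, adjusted p = 0.0536 to 0.18).

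The single drugs were also set against each other directly, a comparison added after seeing the data. The inhibitor group was higher than the 5-azacitidine group in 13 members and lower in 9, where 25.9% of all genes were higher and 23.3% lower. Of genes of at least 20 CPM 20.1% were higher and 42.5% lower, and of members at that level 34.5% and 27.6%. All 4 called effectors were higher with the inhibitor, DDIT4 by 2.31 ± 0.09 and CHAC1 by 0.79 ± 0.08, as were ATF4 by 0.32 ± 0.05, ATF3 and CEBPB. The CEBPB call was lost without inhibitor replicate 2 or 5-azacitidine replicate 1. EPRS1 and NARS1 were lower by -0.34 each, CEBPG by -0.29 and CTH by -0.55. Of the 8 members that fell with both single drugs, PSAT1 passed here (-0.13, adjusted p = 0.0437), a call that was lost in 10 of 22 other settings, including without any inhibitor library or 5-azacitidine replicate 1 or 3. CARS1 (-0.13, adjusted p = 0.0598), CBS (-0.06, adjusted p = 0.39), SLC7A5, ATF5, GPT2, PYCR1 and MARS1 did not pass, the last 5 with differences between -0.08 and 0.04. That does not show that the drugs act alike on them.

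The interaction asks whether the effect of 5-azacitidine on a member differed with the inhibitor present. No member passed by edgeR, where 0.716% of all genes did, and 5 members had an unadjusted p under 0.05. These were SLC7A11 (-0.60 ± 0.18, adjusted p = 0.127), SLC38A2 (-0.35 ± 0.09, adjusted p = 0.0633), ATF5 (0.30 ± 0.09, adjusted p = 0.128), PHGDH (0.20 ± 0.07, adjusted p = 0.225) and SESN2 (0.18 ± 0.09, adjusted p = 0.375). DESeq2 called SLC38A2 and SLC7A11, and limma voom called none. SLC7A11 read 10.3, 11.7 and 13.4 CPM in vehicle, 11.8, 11.7 and 13.6 with the inhibitor, 11.5, 17.7 and 15.6 with 5-azacitidine and 9.17, 12.3 and 9.55 with both. Over the members, 25 estimates were above 0 and 12 below, and the median size was 0.09. The SE of 0.065 to 0.112 for members of at least 20 CPM sets what could be seen. For SLC7A5, for example, the log2 changes of the single drugs were -0.39 and -0.36, that of the combination -0.70, and the interaction 0.05 ± 0.07.

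**Figure D4:**
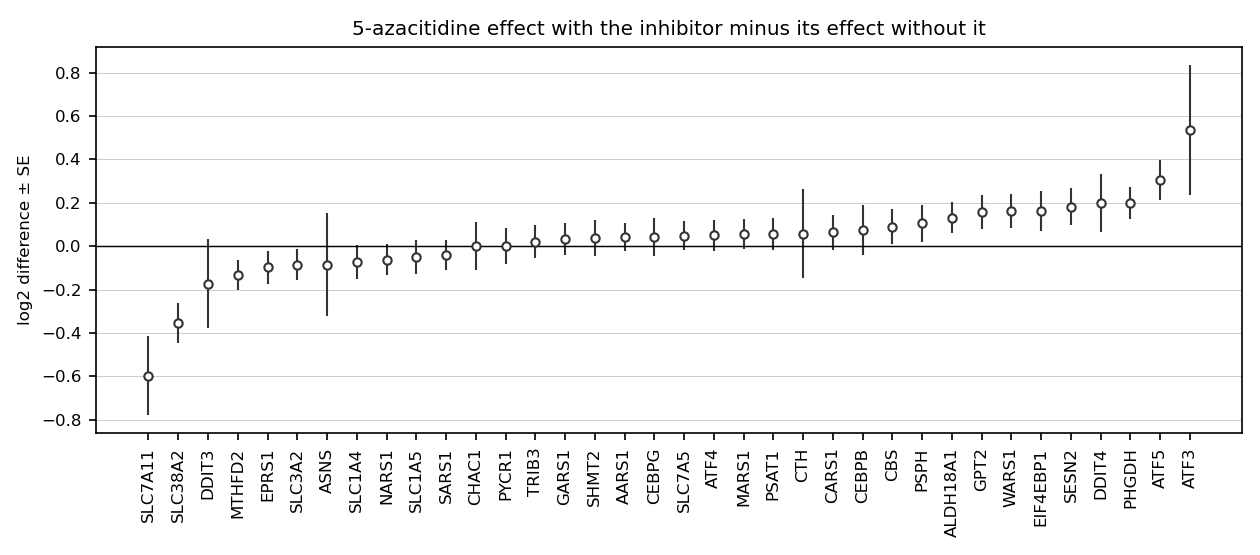
Interaction (y axis, log2 difference ± SE, 3 libraries a group) of 36 members, ordered by value, with VLDLR left out. None passed the test: SLC7A11 and SLC38A2 lie lowest, at -0.60 and -0.35, ATF3 and ATF5 lie highest, and most members lie within 0.2 of 0.

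Genes around the list were read from 10 further lists of the same pathways, again beside the shares of all genes given for each comparison. Of genes of at least 20 CPM, 47.1% fell and 18.5% rose with the inhibitor, and 9.59% and 5.41% with 5-azacitidine. These shares stand beside each list too, though the lists also hold genes below that level. The machinery that phosphorylates eIF2 and reverses it fell in 9 of 15 (60.0%) and rose in 3 with the inhibitor, and fell in 2 with 5-azacitidine. GCN1, which couples stalled ribosomes to the kinase GCN2, fell by 0.31 ± 0.05 with the inhibitor (adjusted p = 4.97e-06) and by 0.17 ± 0.05 with 5-azacitidine (adjusted p = 0.0254). The second call was lost without vehicle replicate 2 or 3 or 5-azacitidine replicate 2. EIF2S1, the phosphorylated subunit of eIF2, fell by 0.34 ± 0.06 with the inhibitor (adjusted p = 8.24e-06).

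Synthetases outside the list stand beside the 47.1% of genes of at least 20 CPM that fell with the inhibitor. Other cytosolic synthetases and their scaffold proteins fell in 9 of 15 (60.0%) and rose in 1 with it, with QARS1, for glutamine, and LARS1, for leucine, at -0.38 each. Mitochondrial synthetases fell in 9 of 17 (52.9%) and rose in none, with IARS2 at -0.43 ± 0.05 and YARS2 at -0.50 ± 0.07. With 5-azacitidine, 2 of 15 cytosolic (YARS1 at -0.19 ± 0.05 and IARS1 at -0.16 ± 0.05) and 3 of 17 mitochondrial ones fell, FARS2 by 0.56 ± 0.08. The call of IARS1 was lost in 11 of 22 other settings, among them those without any 1 of the vehicle, inhibitor or 5-azacitidine libraries, and that of YARS1 without vehicle replicate 1. The members' own 5 of 8 with 5-azacitidine stands beside these counts, and the difference was not tested.

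Further one-carbon and folate enzymes fell in 11 of 16 (68.8%) and rose in 3 with the inhibitor. The smallest adjusted p, 6e-10, was that of GLDC, which rose by 4.92 ± 0.42 from near the floor, a mean of 0.0556 CPM, to 1.77 CPM. MTHFD1L was at -0.53 ± 0.06 and TYMS, the thymidylate synthase, at -0.51 ± 0.06. With 5-azacitidine 3 enzymes of this list fell, MTHFD1L by 0.41 ± 0.06 (adjusted p = 3.75e-05). Other amino acid transporters fell in 9 of 14 (64.3%) and rose in 2 with the inhibitor. SLC7A1, the cationic amino acid importer, fell by 0.38 ± 0.05 with the inhibitor and by 0.28 ± 0.05 with 5-azacitidine (adjusted p = 7.99e-07 and 8.31e-04). SLC7A8, the LAT2 light chain, rose with the inhibitor by 1.23 ± 0.09, from a mean of 15.3 to 36.1 CPM. Glutamine, proline and branched-chain enzymes fell in 2 of 12 and rose in 1 with the inhibitor, GOT2, the mitochondrial aspartate aminotransferase, by -0.61 ± 0.05, and fell in 2 with 5-azacitidine.

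Amino acid sensing genes and other stress factors rose more often than they fell with the inhibitor, 9 and 5 of 17, and 0 rose and 1 fell with 5-azacitidine. SESN3, a sestrin like SESN2, rose by 1.39 ± 0.15 and BATF3, a relative of ATF3, by 1.22 ± 0.14. The genes of the XBP1 and ATF6 arms of the endoplasmic reticulum stress response rose in 9 of 12 and fell in none with the inhibitor, XBP1 from 96.0 to 416 CPM (2.12 ± 0.05) and the chaperone HSP90B1 by 0.65 ± 0.05. With 5-azacitidine 1 of them rose, XBP1 by 0.39 ± 0.05, and 3 fell. The list of the mitochondrial route to ATF4 also holds the chaperonins HSPD1 and HSPE1 and the protease LONP1. In it 4 of 6 genes (66.7%) fell with the inhibitor, these chaperonins and the protease among them, HSPD1 by 0.47 ± 0.05. With 5-azacitidine 1 fell, LONP1 by 0.42 ± 0.05. Glutathione synthesis and NRF2 targets fell in 4 of 11 and rose in 1 with the inhibitor. That 1 was HMOX1, the haem oxygenase, which went from 1.11 to 14.9 CPM (3.75 ± 0.13) and rose by 0.88 ± 0.17 with 5-azacitidine.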

How the data were processed

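Poly(A) RNA of 12 libraries was analysed from 1 deposited table of expected counts per gene. Per the file headers, these were made by featureCounts 2.1.1 on the exons of release 114 gene models, with strand ignored, multi-mapping reads shared as fractions and no count for reads over 2 or more genes. Per the submitters' processing notes, cutadapt 5.1 and STAR 2.7.11b on GRCh38 came before, and the notes give Subread as 2.1.2. The header names 16 libraries, 4 of which were not analysed here. The headers leave unclear if reads or read pairs were counted.

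Counts were rounded and fitted in edgeR 4.0.16 (R 4.3.3) over all 12 libraries with 1 mean per group, after filterByExpr (17869 genes, 99.93% of counts) and TMM scaling. The quasi-likelihood F-test was two-sided and p-values were adjusted by Benjamini-Hochberg across the genes tested. The SE is the log2 change over the square root of F, and the biological coefficient of variation was 6.05%. TPM used the deposited exonic lengths. Alternatives were DESeq2 1.42.0, limma 3.58.1, other scalings and filters, replicate blocks, single comparisons and leaving out libraries. Pairing by title number was looked for in the deviations of libraries from their group means. Those of same-numbered libraries correlated at 0.129, 0.256 and 0.163 between vehicle and inhibitor and at 0.111, 0.123 and 0.243 between vehicle and 5-azacitidine. In the other 4 pairs of groups at least 1 correlation was under 0.1. Libraries of different title numbers correlated at -0.416 to 0.405, with 7 of 36 pairs over 0.1, so a pairing by number was not established. Promoters were read with Python 3.11.15 and figures drawn with matplotlib 3.10.9. Members and lists were chosen with earlier results of these data known. By rule, members called against vehicle with a log2 change of at least 0.3 in size, and ATF4, are given in full, and up to 3 (inhibitor) or 2 (5-azacitidine) genes of each further list may be named; SLC7A11 was added after its values were seen.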

Additional observations from a re-analysis of the deposited data

Results flagged for a closer look

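No member passed the test of the interaction. In the further lists 2 genes did, so that the effect of 5-azacitidine differed with and without the inhibitor (edgeR quasi-likelihood F-test over all 12 libraries). SLC7A8, the LAT2 light chain, had an interaction of 0.56 ± 0.12 on the log2 scale (SE; adjusted p = 0.0242). Its mean was 15.3 CPM in vehicle and 14.1 with 5-azacitidine alone, but 36.1 with the inhibitor and 48.8 when both were given. XBP1 had an interaction of -0.34 ± 0.07 (adjusted p = 0.0242), with a mean of 96.0 CPM in vehicle, 125 with 5-azacitidine alone, 416 with the inhibitor and 429 when both were given. Each of the 2 calls was lost in 8 of the 12 fits that left out 1 library: for SLC7A8 without replicate 1 or 3 of vehicle, the inhibitor or the combination or 5-azacitidine replicate 2 or 3 (0.48 to 0.56, adjusted p = 0.0565 to 0.0975), and for XBP1 without vehicle replicate 1 or 2, any inhibitor library, 5-azacitidine replicate 2 or 3 or combination replicate 1 (-0.30 to -0.35, adjusted p = 0.0617 to 0.0966). Groups of 3 libraries are too small for a test of single outlying libraries.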

How the results depend on the processing

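Each count of members called was recomputed under the alternatives. It ran from 21 to 27 for the inhibitor against vehicle, 26 to 31 for both drugs against vehicle, 22 to 27 for both against 5-azacitidine and 17 to 25 for the inhibitor against 5-azacitidine. For 5-azacitidine against vehicle it was 16, and 8 to 19 when 1 library was left out; for both drugs against the inhibitor it was 14, and 5 to 15. In these fits an arm with fewer libraries shares the spread of all groups. The interaction count of 0 became 1 with DESeq2 size factors or a stricter filter (SLC38A2), 2 with no filter on low counts or with DESeq2 (SLC7A11 and SLC38A2), 1 without both libraries of highest mitochondrial share (SLC7A11), and 0 to 2 when 1 library was left out.

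Whether the title numbers pair libraries was not settled. Same-numbered libraries correlated at -0.277 to 0.497, with 8 of 18 pairs over 0.1, and differently numbered ones at -0.416 to 0.405, with 7 of 36 over 0.1. Of 12 libraries, 5 correlated best with their own number. Every same-numbered correlation was over 0.1 only between vehicle and each single drug. With the title number as a replicate block the counts were 25, 14, 30, 13, 25 and 0 in the order inhibitor, 5-azacitidine and both against vehicle, both against the inhibitor and 5-azacitidine, and the interaction. In the comparisons of each single drug with vehicle that block ended the calls of MTHFD2 with the inhibitor and of PYCR1 and AARS1 with 5-azacitidine and changed no other call of a member. With the number of the library names as a block they were 27, 11, 29, 12, 27 and 2.

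For 119 changes of single genes, 2611 recomputed values gave 2422 with the same call, 182 that lost it, 7 that gained it and 0 with the other sign. Of the 117 changes that were calls, 90 kept theirs under each alternative and 27 lost theirs under at least 1. The gains were all the interaction of SLC38A2 (-0.34 to -0.45, adjusted p = 9.2e-04 to 0.0461). Among members, CBS, GPT2, ATF5, PSAT1, PHGDH, SLC7A5, MARS1 and GARS1 kept their calls with 5-azacitidine in all 22 settings.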
